A study of Mus musculus with 17 samples.

Results

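The genes described here are long noncoding RNA genes and host genes of small nucleolar RNAs (snoRNAs), chosen by name: Malat1, Neat1, Meg3, H19, Gas5, Snhg1, Snhg3, Snhg6, Snhg8 and Snhg12. Of these 10 genes, 9 have a row among the 36172 genes of the deposited table, and no Pol II value of Snhg8 was analysed here. RNA polymerase II (Pol II) was measured by chromatin immunoprecipitation and sequencing in C57Bl/6 primary mouse embryonic fibroblasts. The cells were harvested at day 3 after lentiviral delivery of shRPAP1 #5, a hairpin against Rpap1, or of SCR, a hairpin with no target, and both groups were kept in puromycin. RPAP1 is a protein that associates with Pol II. Chromatin of 3 fibroblast lines was pooled, so each of the 2 groups is 1 library with an antibody to total Pol II (RPB1, N-20) and 1 library with an antibody to Ser5P, the form of Pol II with phosphate on serine 5 of the tail of its largest subunit. No difference below therefore has a replicate check, and no test between the groups was possible. For both knockdown libraries the title, treatment and shRNA labels name shRPAP1, while the description names the SCR control, and they are taken here as knockdown.

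Long noncoding RNAs are Pol II transcripts that act as RNA. Malat1 and Neat1 stay in the nucleus, where Malat1 RNA collects in nuclear speckles and Neat1 RNA is the scaffold of paraspeckles. Meg3 and H19 are imprinted and expressed from the maternal chromosome. The 5 snoRNA host genes that have a row carry snoRNAs in their introns, and splicing frees them. Box C/D snoRNAs guide ribose methylation and box H/ACA snoRNAs guide pseudouridine formation, mostly in ribosomal RNA. The spliced host RNA is often short-lived. Several host genes start transcription in a pyrimidine tract, as the genes of ribosomal proteins do.

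Start regions were read from RefSeq on GRCm38.p6, as windows of 100 bases with 50 bases on each side of the start, and 7 of the 10 genes gave 9 windows, since Gas5 and Meg3 have 2 starts each. Snhg8 is among the 7 through its RefSeq window alone, which is not printed and holds a TATANA and a pyrimidine run. The printed windows show annotated starts. Which start each promoter value below is counted around is not given in the sources used here. Capitals mark TATANA on the sense strand, a run of at least 5 pyrimidines that touches the start, and TGACGTCA, the palindrome that CREB and ATF factors bind.
Meg3, first start, chr12:109540946-109541045, plus strand: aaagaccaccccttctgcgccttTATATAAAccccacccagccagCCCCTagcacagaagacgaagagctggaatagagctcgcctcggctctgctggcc
Malat1, chr19:5802623-5802722, minus strand: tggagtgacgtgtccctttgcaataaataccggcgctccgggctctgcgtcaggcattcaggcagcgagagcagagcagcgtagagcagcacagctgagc
Gas5, upstream start, chr1:161034551-161034650, plus strand: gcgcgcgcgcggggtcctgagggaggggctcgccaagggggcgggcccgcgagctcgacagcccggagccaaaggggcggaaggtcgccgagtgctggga
Gas5, downstream start, chr1:161035116-161035215, plus strand: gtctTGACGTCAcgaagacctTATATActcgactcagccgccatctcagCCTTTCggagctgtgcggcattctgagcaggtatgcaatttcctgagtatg
Snhg1, chr19:8723437-8723536, plus strand: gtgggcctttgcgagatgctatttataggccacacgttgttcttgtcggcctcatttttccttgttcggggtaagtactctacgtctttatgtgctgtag
Snhg3, chr4:132353637-132353736, minus strand: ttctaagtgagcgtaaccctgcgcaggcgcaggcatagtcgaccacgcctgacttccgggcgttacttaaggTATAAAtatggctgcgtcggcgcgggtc
Snhg12, chr4:132308628-132308727, plus strand: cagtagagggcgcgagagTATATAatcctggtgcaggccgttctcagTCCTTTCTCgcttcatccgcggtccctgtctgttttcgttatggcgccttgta

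TATANA, searched on both strands, lay in 6 of the 9 windows, against 8.54% of 32841 windows of all RefSeq genes and 13.7% of 73 windows of ribosomal protein genes. In Snhg1 the match lies on the antisense strand, and in Snhg3 it lies 23 bases after the start. A pyrimidine run at the start was found in 4 of the 9 windows, against 16.1% of all windows and 32.9% of the ribosomal protein windows. TGACGTCA was found in 1 of the 9, at the downstream start of Gas5, against 0.874% of all windows. The upstream start of Gas5 holds none of the 3 motifs. These motifs were chosen after the windows had been seen, and a match is a description of letters, not of a bound factor.

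The products of the host genes are shown by 2 box C/D snoRNAs from introns, with the C box TGATGA and the D box CTGA in capitals. Both hold an exact TGATGA, while Snord22 in Snhg1 and Snord99 in Snhg12, also read but not printed, do not.
Snord47, in Gas5, chr1:161038092-161038156, plus strand: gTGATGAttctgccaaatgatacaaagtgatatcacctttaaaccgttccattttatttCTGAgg
Snord87, in Snhg6, chr1:9942470-9942543, minus strand: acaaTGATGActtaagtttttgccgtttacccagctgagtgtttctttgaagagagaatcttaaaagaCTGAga
RefSeq places 8 snoRNAs in Gas5, 8 in Snhg1, 2 in Snhg3, 1 in Snhg6 and 4 in Snhg12, and each of them lies in an intron. Pol II over these short genes thus crosses snoRNAs at short spacing in Gas5 and Snhg1, while Snhg6 carries Snord87 alone near its end. For Snhg8, which has no row, RefSeq gives 1 exon with Snora24 inside it.

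**Figure D1:**
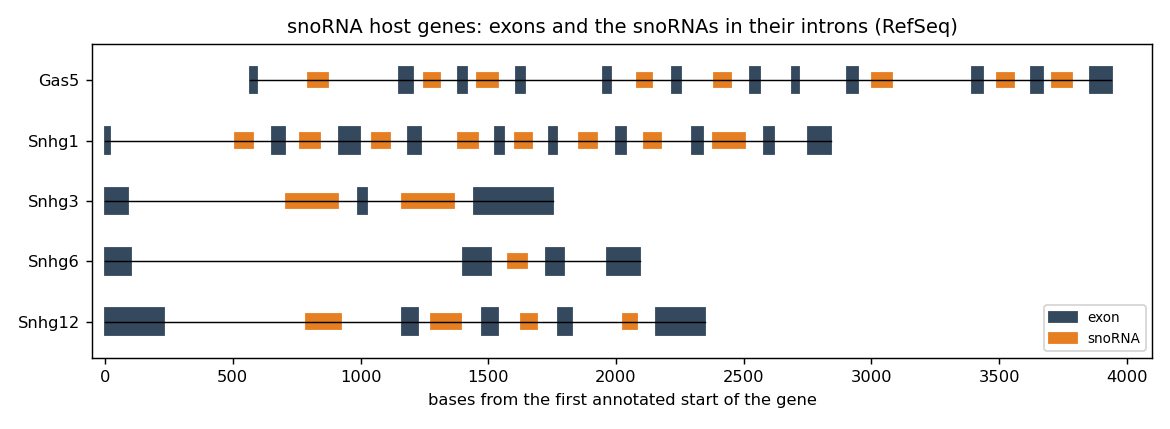
Exons (dark boxes) and snoRNAs (orange boxes) of the 5 snoRNA host genes, drawn to scale in bases from the first annotated start. Gas5 and Snhg1 hold 8 snoRNAs each, Snhg12 holds 4, Snhg3 holds 2 and Snhg6 holds 1. The Gas5 transcript drawn begins at the downstream start, 565 bases after the upstream one.

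Values are the signal as deposited, which is per length and so can be set side by side between genes. At a promoter 1 more read of 40 bases adds 28.8 to the signal, and a promoter with no read has 0.72. Promoters held 71277 reads in the shRPAP1 library and 129638 reads in the SCR library with total Pol II, and 156206 reads in shRPAP1 and 290756 reads in SCR with Ser5P. Genes that fibroblasts should not use (1785 receptor and tissue-specific genes) had, with total Pol II, a mean promoter signal of 14.0 in shRPAP1 and 8.04 in SCR, and with Ser5P one of 10.1 in shRPAP1 and 6.66 in SCR. A gene was counted as measured when it passed the 95th percentile of those genes in at least 1 of the 2 libraries of an antibody, and was called lower or higher when the groups differed at least 1.5-fold. Rpap1 itself had 325 in shRPAP1 and 211 in SCR at its promoter by total Pol II, against Ser5P values of 541 in shRPAP1 and 886 in SCR. Since a hairpin acts on RNA, these values do not check the depletion. Of 12 fibroblast marker genes, 11 or 12 passed the limit of their library over the gene body. Their median log2 ratio there was -1.33 with total Pol II and -1.51 with Ser5P, and their summed total Pol II signal was 2062 in shRPAP1 and 5298 in SCR. None of 4 epithelial and none of 4 endothelial markers passed that limit in any library, while 1 or 2 of 3 blood markers (Cd68 highest) and 0 to 2 of 4 neural markers (Nes highest) did. Summed over the 3 blood markers, the gene body signal was 142 in shRPAP1 and 312 in SCR with total Pol II, of which Cd68 made up 108 in shRPAP1 and 260 in SCR, while Ptprc had 21.0 in shRPAP1 and 17.9 in SCR. The part of these markers in the results was not tested. In pooled chromatin, fewer cells of a type and less Pol II per cell cannot be told apart.

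Pol II on the noncoding genes was lower in shRPAP1 than in SCR fibroblasts in the deposited scale, by about as much as on other genes at promoters and by more than the median gene over gene bodies. With total Pol II over gene bodies, all 9 genes were at least 1.5-fold lower, against 47.7% of all measured genes, and their median log2 ratio was -1.24, against -0.56 over all measured genes. With Ser5P over gene bodies, again all 9 were lower, against 58.7% of measured genes, with a median of -1.34 against -0.71. At promoters with total Pol II, 8 of the 8 measured genes were lower, against 69.2% of measured genes, with a median of -1.02 against -1.07. At promoters with Ser5P, 7 of the 8 genes besides H19 were lower, against 69.1%, with a median of -0.96 against -0.97, and H19 is not counted there, since it had 0 reads in shRPAP1 and 2 in SCR. When each library pair is rescaled so that the median measured gene has a log2 ratio of 0, the medians of the noncoding genes are -0.68 and -0.63 over gene bodies with total Pol II and Ser5P, while at promoters they are 0.05 and, with H19 included, -0.01, so at promoters the noncoding genes lie at the median gene. On that scale 30.6% of measured promoters with total Pol II were lower and 27.1% higher, and 15.9% and 15.1% of gene bodies, while with Ser5P the shares were 24.0% and 24.2% of promoters and 15.9% and 18.7% of gene bodies. With the silent genes set equal instead, between 84.2% and 88.5% of measured genes were lower in the 4 comparisons and between 4.22% and 7.23% higher. With the mean signal of the silent genes subtracted, the gap over gene bodies was smaller: the medians were -1.39 for the 9 genes and -0.96 for all measured genes on total Pol II, and for Ser5P they were -1.39 against -1.06. The lower share of all measured gene bodies was then 73.1% with total Pol II and 76.2% with Ser5P. None of the 9 was higher in any comparison, against 7.40% and 7.90% of measured genes at promoters and gene bodies with total Pol II, and for Ser5P 11.3% and 8.83%.

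The filter lets a gene in through the SCR library alone, with a shRPAP1 signal at or below the limit of its own library. Such an entry can favour a lower call but does not fix it. Gas5 entered so at the total Pol II promoter, and H19 entered so in the other 3 comparisons. Without them the genes above the limit in both libraries were 7 of 7 lower at the total Pol II promoter (median log2 ratio -0.99), 8 of 8 over the total Pol II gene body (-1.23), 7 of 8 at the Ser5P promoter (-0.96) and 8 of 8 over the Ser5P gene body (-1.31). The share of all genes that were lower under that filter is not given here, so these counts have no matching background. Apart from H19, the noncoding genes also carry more Pol II over the gene body than most. Among genes in the top 5% by SCR signal with the other antibody, 81.2% were lower over the gene body with total Pol II, with a median of -1.00, and 88.7% with Ser5P, with a median of -1.13. The part of the level in the difference from all genes was not tested.

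**Figure D2:**
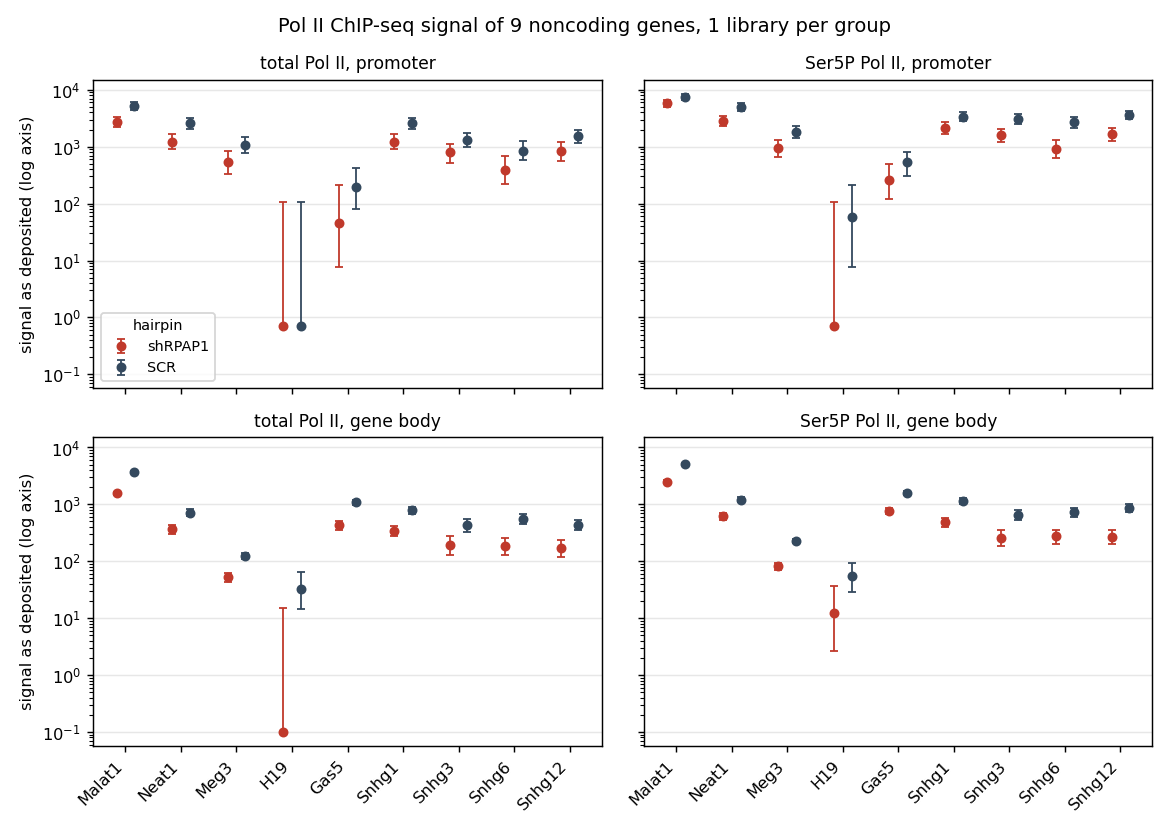
Signal as deposited (log axis) of the 9 noncoding genes at promoters and over gene bodies, with total Pol II and with Ser5P. Each point is 1 library, shRPAP1 in red and SCR in dark blue, and bars are exact 95% Poisson intervals of its reads. Malat1 is the highest gene in each panel and H19 the lowest, and for the 8 genes besides H19 the shRPAP1 point lies below the SCR point in every panel.

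Malat1 (chr19:5795690-5802672, minus strand, 1 exon) had the highest signal of the 9 in every library. At its promoter, total Pol II was 2704 in shRPAP1 and 5219 in SCR, a log2 ratio of -0.95 (95% interval of the reads -1.32 to -0.58). Ser5P at the promoter was 5757 in shRPAP1 and 7545 in SCR, a ratio of -0.39 (-0.66 to -0.12), which left 76.3% of the SCR signal. Among the 8 genes besides H19 it is the only promoter with Ser5P that was not at least 1.5-fold lower, and its interval lies above the -0.97 of the median measured gene. By rank among all genes, the Malat1 promoter with Ser5P was number 14 in shRPAP1 and number 5 in SCR. Its gene body was lower by more than its promoter. There total Pol II was 1558 in shRPAP1 and 3645 in SCR, a ratio of -1.23 (-1.33 to -1.12), and Ser5P was 2518 in shRPAP1 and 5222 in SCR, a ratio of -1.05 (-1.14 to -0.97). With Ser5P the promoter and gene body intervals do not overlap, the only such case with either antibody among the 8 genes besides H19. With 1093 shRPAP1 and 2558 SCR reads over the gene body with total Pol II, Malat1 has the narrowest intervals of the group.

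Neat1 (chr19:5824708-5845480, minus strand) lies next to Malat1 and has a short and a long transcript from nearly the same start. At its promoter, total Pol II was 1235 in shRPAP1 and 2571 in SCR, and Ser5P was 2890 in shRPAP1 and 5043 in SCR. The log2 ratios were -1.06 (-1.61 to -0.51) and -0.80 (-1.18 to -0.44), and both intervals hold the median of all measured genes. Along the gene, total Pol II was 367 in shRPAP1 and 717 in SCR (-0.96), and Ser5P was 620 in shRPAP1 and 1200 in SCR (-0.95). These are the smallest gene body changes among the 9. The Ser5P interval, -1.21 to -0.69, holds the median of all measured genes, and it is the only one of the 8 genes besides H19 to do so over the Ser5P gene body. Reads were recovered here with the shorter transcript span of 3185 bases, which gives the widest interval. With the longer span of 20771 bases the interval would be narrower, so whether it holds the median may depend on that choice. Which of the 2 transcripts the gene body value covers is not given in the sources used here.

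Meg3 (chr12:109540996-109571729, plus strand), the imprinted RNA gene of the Dlk1-Dio3 cluster, had 545 in shRPAP1 and 1083 in SCR at its promoter with total Pol II, and 949 in shRPAP1 and 1825 in SCR with Ser5P. The log2 ratios of -0.99 and -0.94 lie within 0.1 of the median gene. Over its long gene body, signal was 52.8 in shRPAP1 and 125 in SCR for total Pol II (-1.24, -1.56 to -0.94), and 82.5 in shRPAP1 and 225 in SCR with Ser5P (-1.44, -1.68 to -1.21). Both gene body intervals lie below the median of all measured genes. The gene body overlaps Rtl1, a protein-coding gene on the other strand, whose own gene body signal was 51.9 in shRPAP1 and 156 in SCR for total Pol II, against 76.5 in shRPAP1 and 192 in SCR for Ser5P. Immunoprecipitated chromatin has no strand, so reads in the shared stretch belong to either gene. Rian and Mirg, noncoding genes of the same cluster, had log2 ratios of -1.32 and -1.25 over the gene body with total Pol II, and of -1.20 and -1.08 with Ser5P.

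H19 (chr7:142575530-142578146, minus strand), the imprinted RNA gene that holds the microRNA gene Mir675, had few Pol II reads. Its SCR gene body signal was 33.0 with total Pol II and 55.4 with Ser5P. These passed the silent-gene limits of 25.8 and 20.6, and in shRPAP1 neither value passed. No read fell on its promoter with total Pol II in either library, and with Ser5P 0 reads in shRPAP1 stood against 2 in SCR, so no fold is given for the promoter. Over the gene body with total Pol II, 0 reads in shRPAP1 stood against 8 in SCR. That is 2.67-fold lower if the 0 is read as the limit of 3 counts that it allows and the 8 is taken as exact. The exact interval of the log2 ratio of these reads has no lower end and an upper end of -0.77, a smaller fold. With Ser5P, 3 reads in shRPAP1 stood against 13 in SCR, a log2 ratio of -2.12 with an interval of -4.57 to -0.25. With H19 set at 2.67-fold lower, the median of the 9 genes over the gene body with total Pol II stays at -1.24, and without H19 it is -1.23.

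Gas5 (chr1:161034601-161038539, plus strand), whose RNA accumulates in growth-arrested cells, had the second highest gene body signal of the 9 in each library. There total Pol II was 425 in shRPAP1 and 1086 in SCR, a log2 ratio of -1.35 (-1.65 to -1.06), and Ser5P was 756 in shRPAP1 and 1566 in SCR, a ratio of -1.05 (-1.28 to -0.83). Its promoter values were small beside these. Total Pol II was 46.2 in shRPAP1 and 193 in SCR, which is 2 against 7 reads with a ratio of -2.05 and an interval of -5.11 to 0.59. Ser5P at the promoter was 265 in shRPAP1 and 532 in SCR, a ratio of -1.01 (-2.34 to 0.23). Both promoter intervals include no change.

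Gas5 was the only one of the 8 genes besides H19 with less signal at the promoter than over the gene body. The ratio of promoter to gene body was 0.110 in shRPAP1 and 0.179 in SCR for total Pol II, against 0.351 in shRPAP1 and 0.340 in SCR for Ser5P. The median measured gene had 2.49 in shRPAP1 and 3.50 in SCR for total Pol II, and a Ser5P ratio of 5.32 in shRPAP1 and 6.10 in SCR. RefSeq gives Gas5 a pair of starts 565 bases apart, and the upstream one lies within Zbtb37, whose own start on the other strand is 263 bases away. The Zbtb37 promoter had 87.3 in shRPAP1 and 196 in SCR for total Pol II, and a Ser5P signal of 289 in shRPAP1 and 510 in SCR, close to the Gas5 promoter values. Which start the deposited Gas5 promoter is counted around is not given in the sources used here, and a window at the upstream start would place the downstream start, with its TATATA and pyrimidine run, in the gene body.

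**Figure D3:**
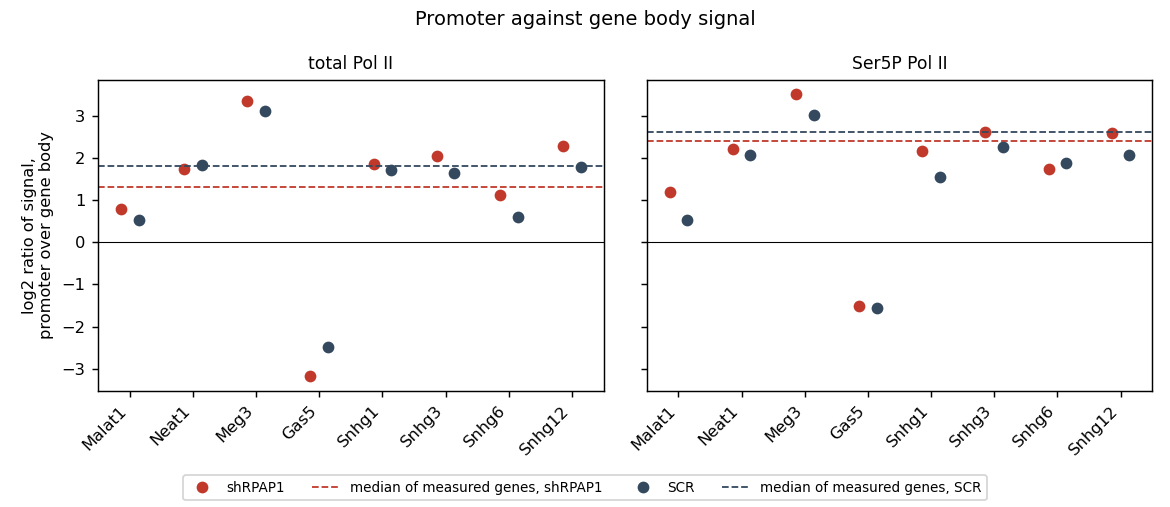
Log2 ratio of promoter over gene body signal of 8 noncoding genes in each library, shRPAP1 in red and SCR in dark blue, with the median of measured genes dashed. Gas5 lies below 0 in all 4 libraries (-3.18 and -2.49 with total Pol II, -1.51 and -1.56 with Ser5P, shRPAP1 and SCR), and Meg3 is the highest gene in both panels.

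Meg3, which has the longest span of the 9 genes, stood at the other end. Its ratio of promoter to gene body was 10.3 in shRPAP1 and 8.65 in SCR for total Pol II. For Ser5P it was 11.5 in shRPAP1 and 8.12 in SCR. Malat1 was low, at 1.74 in shRPAP1 and 1.43 in SCR for total Pol II, and for Ser5P at 2.29 in shRPAP1 and 1.44 in SCR. For the 8 genes besides H19, the gene body log2 ratio of shRPAP1 over SCR was below the promoter one in 6 for total Pol II, and for Ser5P in 7. The share of all measured genes with a gene body ratio below the promoter one is not given here, so these counts have no matching background. Medians over all measured genes, from sets that differ between the regions, were lower at promoters (-1.07 and -0.97) than over gene bodies (-0.56 and -0.71). With the silent-gene mean subtracted, this order held for total Pol II (-1.30 and -0.96) but not for Ser5P (-1.05 and -1.06). By Ser5P, the gene body median was also the lower one in the top 5% of genes by level (-1.13 against -1.03 at promoters). It was in ribosomal protein genes (-1.27 against -1.06), and in protein-coding (-1.28, -0.95) and other noncoding snoRNA hosts (-1.32, -1.12). With total Pol II those sets had the lower median at promoters, as other long noncoding RNA genes had with both antibodies. Fibroblast markers had it over gene bodies with both. Apart from Malat1 with Ser5P, the promoter and gene body intervals of each gene overlap.

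Snhg1 (chr19:8723487-8726326, plus strand) is the host of Snord22 and 7 more snoRNAs. Its promoter had 1233 in shRPAP1 and 2605 in SCR with total Pol II, a log2 ratio of -1.08, and 2158 in shRPAP1 and 3372 in SCR with Ser5P, a ratio of -0.64 (-1.08 to -0.21). Its gene body had 340 in shRPAP1 and 790 in SCR for total Pol II (-1.21), and a Ser5P signal of 481 in shRPAP1 and 1160 in SCR (-1.27, -1.58 to -0.97). Snhg1 starts 118 bases from Slc3a2, which encodes the heavy chain of amino acid transporters and runs the other way, so the promoter windows of both can hold the same reads. The Slc3a2 promoter had 248 in shRPAP1 and 943 in SCR for total Pol II, and a Ser5P signal of 1308 in shRPAP1 and 2144 in SCR.

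Snhg6 (chr1:9942025-9944118, minus strand) had the largest fold over the gene body with total Pol II among the 8 genes besides H19. That signal was 184 in shRPAP1 and 560 in SCR, 3.04-fold lower (log2 ratio -1.61, -2.18 to -1.02), and Ser5P was 273 in shRPAP1 and 731 in SCR (-1.42). At its promoter, total Pol II was 396 in shRPAP1 and 854 in SCR (-1.11), and Ser5P was 911 in shRPAP1 and 2679 in SCR (-1.56, -2.17 to -0.95). Snhg6 overlaps the end of Mcmdc2 on the other strand, whose promoter had no read in any library, while its gene body had 47.3 in shRPAP1 and 77.8 in SCR with total Pol II.

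Snhg3 (chr4:132351933-132353686, minus strand) is the host of Snora73a and Snora73b, the U17 snoRNAs, which act in the cutting of the ribosomal RNA precursor. Its promoter had 793 in shRPAP1 and 1330 in SCR for total Pol II (-0.74), and 1587 in shRPAP1 and 3126 in SCR with Ser5P (-0.98). The gene body had 192 in shRPAP1 and 427 in SCR for total Pol II (-1.15), and 259 in shRPAP1 and 657 in SCR with Ser5P (-1.34). With 29 reads in shRPAP1 and 65 in SCR, its total Pol II interval of -1.85 to -0.51 is the only one over the gene body among the 8 genes to hold the median of all measured genes.

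Snhg12 (chr4:132308678-132311024, plus strand), the host of Snora16a, Snora44, Snora61 and Snord99, had the largest fold with Ser5P over the gene body among the 8 genes besides H19. That signal was 270 in shRPAP1 and 866 in SCR, 3.20-fold lower (log2 ratio -1.68, -2.13 to -1.25). With total Pol II the gene body had 172 in shRPAP1 and 439 in SCR (-1.35, -1.94 to -0.78). The promoter had 836 in shRPAP1 and 1517 in SCR for total Pol II (-0.86), and 1644 in shRPAP1 and 3638 in SCR with Ser5P (-1.15). No other RefSeq gene overlaps Snhg3 or Snhg12 or starts within 1000 bases of them, apart from their own snoRNAs.

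**Figure D4:**
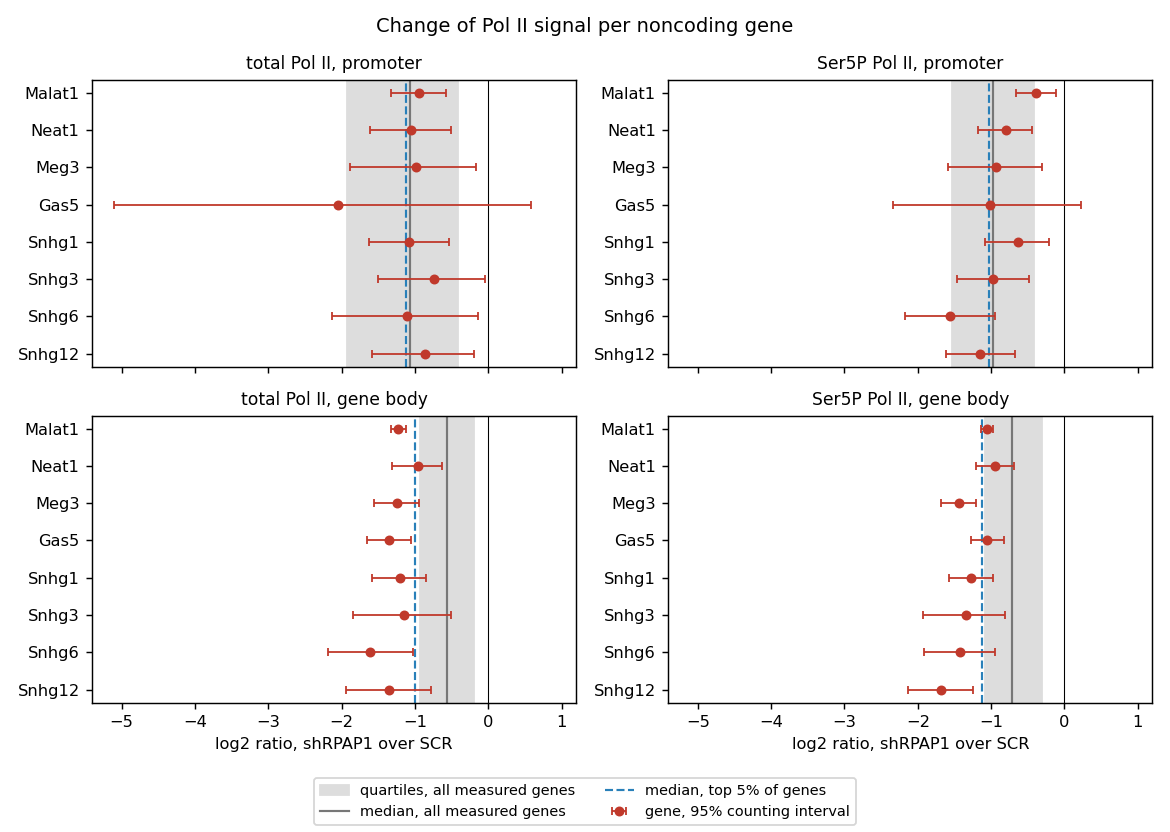
Log2 ratio of shRPAP1 over SCR for the 8 noncoding genes besides H19, with 95% counting intervals, beside the quartiles (grey band) and median (grey line) of all measured genes and the median of the top 5% of genes by level (blue dashes). All 8 points lie left of 0 in each panel, but at promoters 5 of them (total Pol II) and 4 of them (Ser5P) lie at or right of the grey line. Over gene bodies all 8 lie left of it.

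Levels kept a similar order in all 4 libraries. By gene body signal Malat1 came first and Gas5 second, followed by Neat1 and Snhg1 in varying order, then Snhg3, Snhg6 and Snhg12, whose intervals overlap in shRPAP1 with either antibody, then Meg3 and H19. In SCR, Gas5 was apart from its lower neighbour with both antibodies. In shRPAP1 the intervals of Gas5 and Neat1 overlap, with Neat1 reads recovered from its shorter transcript. By rank among all 36172 genes over the gene body with total Pol II, Malat1 was number 36 in shRPAP1 and 17 in SCR, Gas5 was 59 in shRPAP1 and 50 in SCR, and Meg3 was 3619 in shRPAP1 and 1722 in SCR. The ratio of Ser5P to total Pol II depends on antibody yield, so only its place among genes can be read. In SCR, relative to the median measured gene, the log2 ratio of Ser5P over total was lowest at the promoters of Snhg1 (-0.81) and Malat1 (-0.66) and highest at that of Snhg6 (0.46). Over gene bodies it was above the median for all 9, from 0.08 for Snhg6 to 0.67 for Snhg12.

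Other gene lists give the setting. Of 11 measured noncoding snoRNA host genes outside the 9, 11 were lower over the gene body with total Pol II (median log2 ratio -1.14), and 11 of 12 with Ser5P (-1.32). Snhg18 had the largest fold, with 45.2 in shRPAP1 and 208 in SCR with total Pol II (-2.20), followed by Epb41l4aos (-1.51). Snhg17 (-0.70) and Snhg7 (-0.80) had the smallest. Protein-coding hosts of snoRNAs were lower in 19 of 20 with total Pol II (-0.97) and in 20 of 20 with Ser5P (-1.28). Among them, the translation elongation factor gene Eef1b2 (-1.52) and the ribosome-bound scaffold gene Gnb2l1 (-1.34) had the largest folds with total Pol II, and the chaperone gene Hspa8 (-0.54) and the elongation factor gene Eef2 (-0.61) the smallest. Ribosomal protein genes, which share 9 genes with the protein-coding hosts, were lower in 72 of 79 with total Pol II (-1.00) and in 80 of 81 with Ser5P (-1.27). Their total Pol II values ran from Rpl36 (-1.84) and Rps4x (-1.77) to Fau (-0.31) and Rpl36a (-0.17).

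The other long noncoding RNA genes, a list that was not checked for snoRNAs and holds the snoRNA host Rian, had medians nearer that of all measured genes. With total Pol II over the gene body, 17 of 23 measured ones were lower (median log2 ratio -0.67), and with Ser5P 16 of 24 were (-0.78). Carmn, the host gene of Mir143 and listed as Mir143hg, had 259 in shRPAP1 and 771 in SCR with total Pol II (-1.57, -1.72 to -1.43). Terc, the telomerase RNA gene, had 0 reads in shRPAP1 and 2 in SCR over its short gene body, so no fold is given. Mir17hg had 68.7 in shRPAP1 and 48.4 in SCR (0.50, -0.67 to 1.90), and Mir155hg had 38.9 in shRPAP1 and 42.0 in SCR (-0.11, -1.61 to 1.61). Over the gene body with total Pol II, the 5 snoRNA hosts among the 9 genes had a median of -1.35 and the other 4 genes a median of -1.23. With Ser5P the medians were -1.34 and -1.25. The median of the other 4 leans on H19, which had few reads. Their Ser5P values were -1.05 for Malat1, -0.95 for Neat1, -1.44 for Meg3 and -2.12 for H19.

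**Figure D5:**
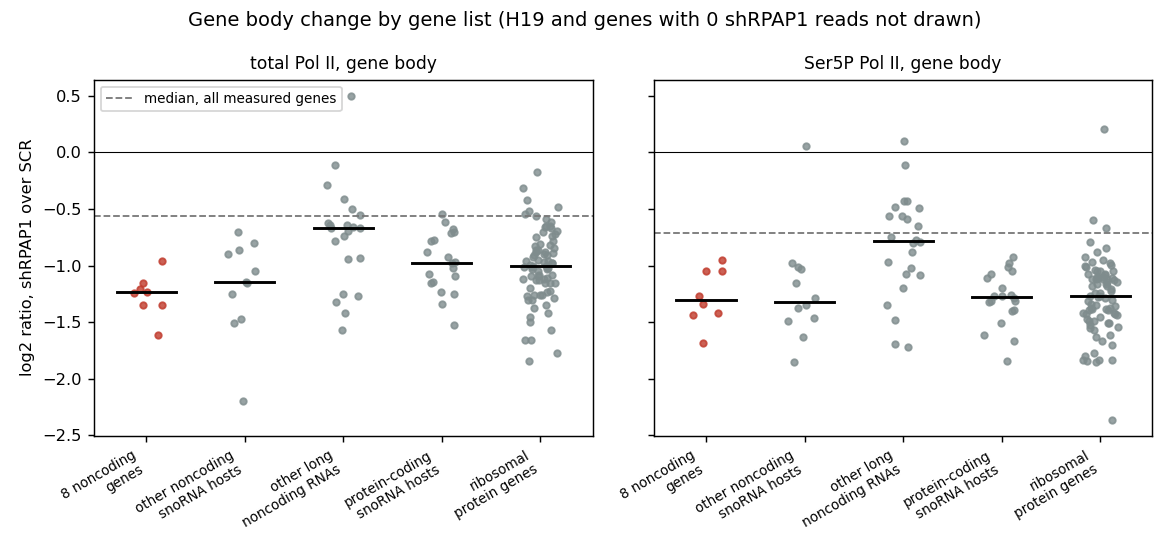
Log2 ratio of shRPAP1 over SCR over the gene body, 1 point per measured gene, for 8 of the noncoding genes (red) and 4 other lists (grey), with the median of each list as a black bar and that of all measured genes dashed. The 8 noncoding genes spread from -1.61 to -0.96 with total Pol II and from -1.68 to -0.95 with Ser5P. Other long noncoding RNA genes have the median nearest the dashed line in both panels.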

How the data were processed

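Members and gene lists were chosen with earlier results of these data known. The deposited values are a signal per gene, with promoter and gene body columns for each of 4 libraries. MACS2 2.0.10.20130712, bedtools 2.23.0, SAMtools 0.1.16 and FastQC are named with GRCm38 (mm10), per the submitters' processing notes. For the aligner, the promoter window, any use of input and any depth scaling the answer is not given in the sources used here. Snhg17, Epb41l4aos and Mir155hg are listed under older names, matched through the RefSeq gene table. The input and 12 RNA samples were not used here. Of 36230 rows, 58 exact repeats were dropped. Promoter values are whole multiples of 0.721 within 0.0059 in all 4 libraries, most often 1, 41 and 81 steps, so read numbers were recovered for reads of 40 bases, approximately for gene bodies, from RefSeq spans. For the 9 genes the span of the shortest transcript was used, which gives the fewest reads and the widest intervals. Log2 ratios were taken after adding 0.72 (promoters) or 0.33 (gene bodies), the 5th percentile of the signal. Ratios of reads have exact 95% Clopper-Pearson intervals, and levels have Poisson intervals. They cover counting error only, and PCR copies are not independent molecules. The ratio and its intervals were tested on simulated Poisson reads, only at promoters with many reads. Gene bodies, low counts and PCR copies were not simulated. Named were the 10 genes, their neighbours (1 is not reported here), Rpap1, and from each other list the 2 highest and 2 lowest measured genes over the total Pol II gene body. Genes named beyond this rule (Rian, Mirg) were chosen after their values were seen. Python 3.11.15, pandas 2.3.3, scipy 1.17.1 and samtools 1.23.1 were used.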

Additional observations from a re-analysis of the deposited data

How the results depend on the processing

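No paired analysis was possible because each group is 1 library per antibody. Scaling changed most. With the median log2 ratio of measured genes set to 0, 1 of 8 genes was lower at the total Pol II promoter. At the Ser5P promoter 2 of 9 were. The shares of all measured genes at these promoters were 30.6% and 24%. Over the gene body 8 of 9 were lower with total Pol II and 5 of 9 with Ser5P, against 15.9% with either antibody. The medians became 0.05 (total Pol II promoter), -0.01 (Ser5P promoter), -0.68 (total Pol II gene body) and -0.63 (Ser5P gene body). Ratios turned positive at the total Pol II promoter for Malat1 (0.12), Neat1 (0.01), Meg3 (0.08), Snhg3 (0.33) and Snhg12 (0.21), and at the Ser5P promoter for Malat1 (0.57), Neat1 (0.16), Meg3 (0.02) and Snhg1 (0.32). With the mean signal of silent genes set equal, the medians were -1.82 (total Pol II promoter), -2.04 (its gene body), -1.58 (Ser5P promoter) and -2.12 (its gene body). Those scalings moved the median of all measured genes from -1.07, -0.56, -0.97 and -0.71 (total promoter, total gene body, Ser5P promoter, Ser5P gene body) to 0, or to -1.86, -1.35, -1.56 and -1.48. At a fold of 2 the count was 4 at each promoter and 8 over each gene body. The share of all measured genes at that fold is not given here. Without the 4 genes that share a region with another gene, the count was 4 at each promoter and 5 over each gene body, as fewer genes were counted. With no filter, the median log2 ratio of Ser5P over total in SCR was 1.23 (promoter) and 0.62 (gene body), as it is then taken against the median of all genes, including those with no read. With the silent-gene mean subtracted, the medians of all measured genes were -1.30, -0.96, -1.05 and -1.06 in the same order, and the count of lower genes over the total Pol II gene body was 10126 in place of 6604. Counts of the 9 genes changed by less than 1.5 times, and none of them turned direction, with that subtraction, other pseudocounts or a stricter filter. Counts at the Ser5P promoter here include H19, with 0 against 2 reads. RNA comparisons and input subtraction were not run. Depth limits H19 and the Gas5 promoter most.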
